A study of Homo sapiens with 24 samples.

Results

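The 10 genes described here encode the heat shock proteins most often read as the cytosolic and mitochondrial heat shock response: HSPA1A, HSPA1B, HSPA8, HSPB1, HSPH1, DNAJB1, HSP90AA1, BAG3, HSPD1 and HSPE1. They were chosen by symbol, and all 10 were found among the 18889 genes of the normalized table. Their transcripts were measured by RNA sequencing in MDA-MB-175, ZR-75-30 (written ZR7530 in some sample titles) and HCC1500, 3 estrogen receptor-positive human breast cancer cell lines with no engineered change named in the labels. Each line was grown for 48 hours in T25 flasks at 5 mM glucose (low glucose) or at 25 mM (high glucose), with 4 samples per group and 24 in all. According to the methods, cells were first accustomed to low glucose, and both media lacked serum. The labels name no osmotic control for these samples, so glucose and the osmolarity it adds cannot be told apart. In some other experiments the authors added mannitol to the low glucose control and reported no difference in the phenotypes examined. Those were proliferation and migration, not RNA. The comparison asks how these genes respond to a glucose concentration used to imitate hyperglycemia. Each line is a single cell population, nothing given here says whether the 4 samples of a group came from separate passages, and the p-values therefore measure the spread between these flasks.

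Heat shock proteins are molecular chaperones that bind unfolded or newly made proteins, prevent their aggregation and help them to fold. HSF1, the main heat shock factor, is held inactive by chaperones and, when misfolded proteins draw these away, forms trimers that bind heat shock elements in the promoters of chaperone genes. These elements are arrays of inverted GAA units, and in cancer cells, including breast cancer cells, HSP70, HSP27 and HSP90 are often abundant without heat.

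The promoter sequences are shown because the heat shock element is the letter pattern through which HSF1 reaches this gene family. RefSeq promoter windows of GRCh38.p14, running from 250 bases before to 50 bases after an annotated start site, were found for all 10 genes (14 windows). A match to 2 units, GAANNTTC or its shifted order TTCNNGAA, on either strand since both are their own reverse complement, was present in 13.5% of all 35116 windows and in 8 of the 14 windows, which belong to 7 of the 10 genes. A match to 3 units, GAANNTTCNNGAA or TTCNNGAANNTTC, contains overlapping matches to 2 units, and was present in 0.49% of all windows and in those of HSPA8, HSP90AA1 and HSPD1. The windows of HSPH1, BAG3 and HSPE1 held neither arrangement of letters. The HSPE1 window begins at chr2:197500129, and the HSPD1 matches, within chr2:197500056-197500090, lie just upstream of it. Their absence from the HSPE1 window therefore rests on the window's length. The stretches below run 5′ to 3′ along the transcribed strand, with matched letters in capitals. For DNAJB1 the window with 2 matches is shown, and another of its windows, with 1 match within chr19:14517917-14517948, is not.
HSPA1A: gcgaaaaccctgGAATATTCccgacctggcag
HSPA1B: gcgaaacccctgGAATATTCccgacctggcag
HSPB1: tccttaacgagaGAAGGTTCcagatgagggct
DNAJB1: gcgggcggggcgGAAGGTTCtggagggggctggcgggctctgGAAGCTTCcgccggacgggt
HSP90AA1: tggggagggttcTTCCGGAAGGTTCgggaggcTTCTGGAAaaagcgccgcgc
HSPD1: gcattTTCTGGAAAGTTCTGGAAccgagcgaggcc
HSPA8: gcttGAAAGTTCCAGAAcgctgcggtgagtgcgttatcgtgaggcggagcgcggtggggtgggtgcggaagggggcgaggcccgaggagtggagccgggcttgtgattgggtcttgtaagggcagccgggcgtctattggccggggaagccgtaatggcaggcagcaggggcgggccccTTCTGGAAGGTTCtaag
In GRCh38.p14 these stretches lie at chr6:31815425-31815456, plus strand (HSPA1A), chr6:31827621-31827652, plus strand (HSPA1B), chr7:76302479-76302510, plus strand (HSPB1), chr19:14518425-14518486, minus strand (DNAJB1), chr14:102087093-102087144, minus strand (HSP90AA1), chr2:197500056-197500090, minus strand (HSPD1) and chr11:123062175-123062370, minus strand (HSPA8). HSPA1A and HSPA1B carried the same 8 matched letters at almost the same distance from the start site, beginning 106 and 105 bases upstream. HSPA8 carried a 3-unit match at each end of its stretch, beginning 230 and 55 bases upstream. These matches are letters in a sequence, and binding of a factor was not measured.

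**Figure D1:**
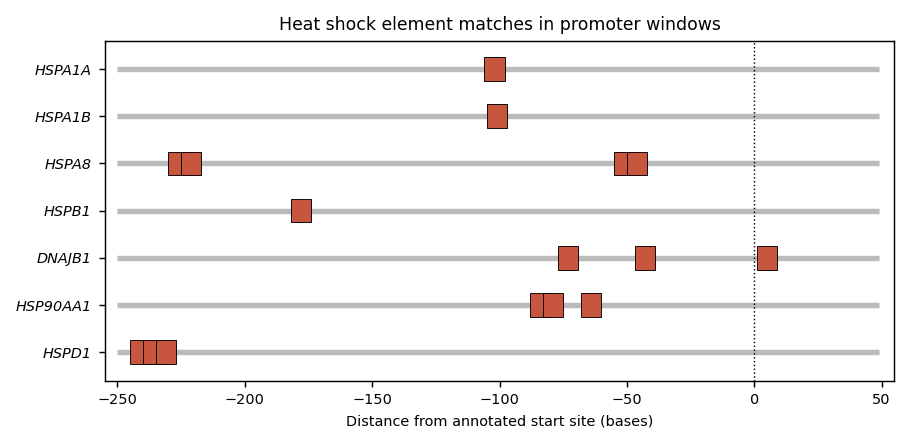
Matches to the 2-unit heat shock element (red boxes, 8 bases each) in the RefSeq promoter windows (grey bars) of the 7 genes that held one, by distance in bases from the annotated start site (dotted line); touching or overlapping boxes form longer arrays, and the DNAJB1 row joins the windows of separate start sites, each measured from its own. HSPA1A and HSPA1B have 1 match at nearly the same place, and HSPD1 has 3 matches at the far end of its window.

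The deposited values were whole reads multiplied by 1 factor per sample, from which 9140024 to 17998819 reads per sample were recovered. TXNIP, a gene known to be induced by glucose, was higher in every high glucose sample than in any low glucose sample of the same line, with log2 changes of 1.02 in HCC1500, 0.76 in ZR-75-30 and 0.39 in MDA-MB-175. The HCC1500 high glucose replicate 3 stood apart from the rest: for 23.91% of genes its value was over 1 log2 unit away from the rest of its group, a share that was 0.44% to 1.74% in the 20 samples outside that group. Its normalized counts summed to 7319781 over all genes, against 5559394 to 5716906 in the 7 other HCC1500 samples. Its ratio to the mean of the other 3 samples had a median of 2.18 over 1211 genes with under 2000 exon bases and of 0.998 over 8502 genes with 4000 or more, a split by length that was chosen after the values were seen. Results in HCC1500 are therefore given with and without this sample, and the part of transcript length in them was not tested. All 6 luminal breast markers were found, with summed normalized counts from 18905 to 43350 across samples, and of the 7 markers of immune, endothelial, stromal and fat cells 4 were found, with sums from 1.53 to 46.6. DCN, a fibroblast marker, was listed at 0 in every ZR-75-30 and HCC1500 low glucose sample, while CD68, a macrophage and lysosome gene, averaged 5.66 ± 1.06 at low and 37.7 ± 4.36 at high glucose in ZR-75-30 (SD, n = 4). In bulk RNA, fewer cells expressing a gene and less of its RNA per cell cannot be told apart.

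At high glucose the 10 genes moved in different directions, and differently in the 3 lines. In MDA-MB-175, 4 genes rose (HSPA1A, HSPA1B, HSPB1 and BAG3) and HSPA8 fell, where called means an adjusted p under 0.05 in limma on log2(normalized count + 1). In ZR-75-30, HSPB1 and HSPD1 rose and DNAJB1 fell. In HCC1500, 3 genes were called with all samples, and all of them rose (HSPA1B, HSPH1 and HSPD1). Without replicate 3, HCC1500 had 5 that rose (HSPA1A, HSPA1B, HSPH1, HSP90AA1 and HSPD1), 4 that fell (HSPA8, HSPB1, DNAJB1 and BAG3) and HSPE1 uncalled.

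Those counts stand against a large background of called genes. In MDA-MB-175, 11.9% of genes tested rose and 13.7% fell. In ZR-75-30 the shares were 23.4% and 22.7%, so that 3 called of 10 was no more than the share of all genes. In HCC1500 they were 7.46% and 13.0%, and without replicate 3 they were 20.9% and 37.7%. The median log2 change of the 10 genes in MDA-MB-175 was 0.09, that in ZR-75-30 was 0.03 and that in HCC1500 was 0.27 (0.05 without replicate 3). Over all genes tested, the medians in the same order were -0.02, 0.01, -0.06 and -0.12. Scaling by the median of ratios moved the last of these all-gene medians to -0.01. The split in HCC1500 without replicate 3 then became 6 that rose and 3 that fell, because HSPE1 rose and BAG3 was no longer called. Scaling to CPM, a fixed total per sample, gave 2 that rose and 2 that fell in ZR-75-30, the added gene being HSPE1. Without ZR-75-30 high glucose replicate 4, the lowest high glucose sample for 8 of the 10 genes, 5 were called there, the added genes being HSPA1A at 0.14 (adjusted p = 0.00454) and HSPA1B at 0.19 (adjusted p = 0.00349).

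**Figure D2:**
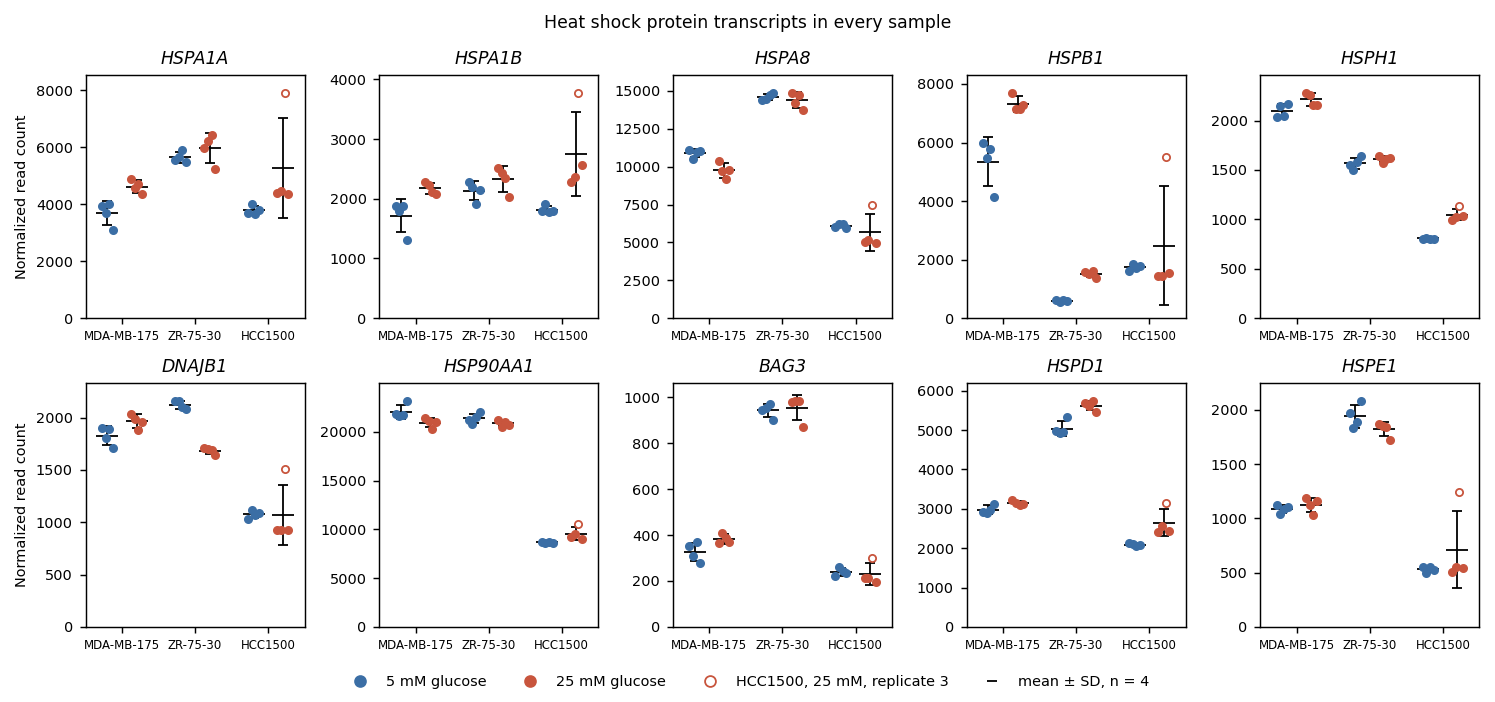
Normalized read count (vertical axes, from 0) of each gene in all 24 samples, by line and glucose (blue 5 mM, red 25 mM), with the mean ± SD of 4 samples as bars; the open circle is HCC1500 high glucose replicate 3. HSPB1 in ZR-75-30 sits between 569 and 619 at 5 mM and between 1384 and 1597 at 25 mM. In 10 of 10 genes the open circle lies above the other 3 high glucose samples, in deposited values whose sum was also larger for that sample.

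HSPB1, which encodes the small heat shock protein HSP27, made the largest change of the 10 genes. The gene lies at chr7:75931990-75933612, plus strand (GRCh37, GENCODE), and the counts are reads over its exons. In ZR-75-30 its normalized read counts in replicates 1 to 4 were 609, 569, 619 and 599 at low glucose and 1595, 1502, 1597 and 1384 at high glucose. All 4 high glucose samples lay far above all 4 low glucose samples, and the log2 change was 1.34 ± 0.05 (SE, adjusted p = 1.74e-13). In MDA-MB-175 the counts were 5972, 5482, 5783 and 4126 at low and 7707, 7155, 7147 and 7273 at high glucose. Here too the groups did not overlap, replicate 4 was the lowest of the low glucose samples, and the log2 change was 0.47 ± 0.08 (SE, adjusted p = 0.000594). In HCC1500 the counts were 1617, 1864, 1706 and 1787 at low and 1425, 1452, 5511 and 1536 at high glucose. Replicate 3 lay above every other HCC1500 sample while the remaining high glucose samples lay below all the low glucose samples. The log2 change was therefore 0.23 ± 0.40 (SE, adjusted p = 0.738) with replicate 3 and -0.24 ± 0.04 (SE, adjusted p = 4.58e-05) without it, a change of direction that rests on that sample.

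The inducible HSP70 genes HSPA1A and HSPA1B rose in MDA-MB-175. In HCC1500 HSPA1B rose with all samples, and HSPA1A was called without replicate 3 only. They lie next to each other at chr6:31783320-31785723, plus strand and chr6:31795515-31798031, plus strand (GRCh37), and 73.7% of the 50-base stretches of HSPA1A transcripts recur in HSPA1B, so that the division of reads between the pair is uncertain. Another annotated gene on the same strand shares 920 exon bases with HSPA1B. Summed over the pair, the normalized counts were 5407 ± 682 at low and 6792 ± 292 at high glucose in MDA-MB-175 and 7786 ± 115 and 8304 ± 698 in ZR-75-30 (SD, n = 4). In HCC1500 the sum was 5609 ± 224 at low glucose, and its high glucose samples gave 6692, 6840, 11698 and 6912. The sum was higher at high glucose without overlap in MDA-MB-175 and HCC1500 and overlapped in ZR-75-30, where replicate 4 had the lowest sum of all 8 samples.

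HSPA1A alone had normalized counts in MDA-MB-175 of 3935, 3703, 4017 and 3098 at low and 4870, 4554, 4709 and 4347 at high glucose. The groups did not overlap, and the log2 change was 0.33 ± 0.07 (SE, adjusted p = 0.00145). In HCC1500 the counts were 3702, 4010, 3652 and 3796 at low and 4408, 4469, 7919 and 4350 at high glucose. Every high glucose sample was above every low glucose sample, yet the log2 change was 0.43 ± 0.19 (SE, adjusted p = 0.149) with replicate 3 and 0.22 ± 0.03 (SE, adjusted p = 4.38e-06) without it. In ZR-75-30 the log2 change was 0.08 ± 0.05 (SE, adjusted p = 0.235), and its groups overlapped. HSPA1B gave log2 changes of 0.12 ± 0.06 (SE, adjusted p = 0.11) in ZR-75-30, 0.35 ± 0.09 (SE, adjusted p = 0.00627) in MDA-MB-175 and 0.57 ± 0.15 (SE, adjusted p = 0.0321) in HCC1500, the last being 0.40 ± 0.04 (SE, adjusted p = 3.07e-08) without replicate 3. With replicate 3 kept, leaving out any of 5 other HCC1500 samples ended that call (adjusted p from 0.0632 to 0.0869).

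HSPA8, the constitutive HSP70 that is made without stress, fell in MDA-MB-175, where HSPA1A and HSPA1B rose, and in HCC1500 without replicate 3. It lies at chr11:122928197-122933938, minus strand (GRCh37), and 16.6% of its 50-base stretches recur in other genes. Its normalized counts in MDA-MB-175 were 11097, 10502, 10960 and 11006 at low and 10349, 9727, 9188 and 9767 at high glucose. No sample overlapped, and HSPA8 fell by 0.16 ± 0.04 (SE, adjusted p = 0.0116) on the log2 scale. In HCC1500 the counts were 6034, 6218, 6215 and 5986 at low and 5049, 5133, 7493 and 4975 at high glucose. Replicate 3 was the highest of the 8 samples, and the other high glucose samples were the lowest. The log2 change was -0.13 ± 0.14 (SE, adjusted p = 0.552) with replicate 3 and -0.27 ± 0.02 (SE, adjusted p = 1.67e-08) without it. In ZR-75-30 it was -0.02 ± 0.04 (SE, adjusted p = 0.652). The ratio of HSPA8 to HSPA1A within a sample, which no scaling of the whole sample can alter, was 2.98 ± 0.382 at low and 2.11 ± 0.122 at high glucose in MDA-MB-175 (SD, n = 4). In HCC1500 this ratio was 1.61 ± 0.0668 at low and 1.1 ± 0.0999 at high glucose, replicate 3 included, and in both lines the groups did not overlap. In ZR-75-30 it was 2.59 ± 0.0936 and 2.42 ± 0.165, with overlap.

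The partners of HSP70 followed different courses. HSPH1 encodes HSP105, a nucleotide exchange factor of the HSP110 family, and lies at chr13:31709110-31736525, minus strand (GRCh37), with none of its 50-base stretches shared with another gene. In HCC1500 its normalized counts were 805, 815, 801 and 806 at low and 999, 1027, 1132 and 1032 at high glucose. The low glucose samples were nearly equal, all 4 high glucose samples lay above them, and HSPH1 rose by 0.37 ± 0.07 (SE, adjusted p = 0.00676), or by 0.34 ± 0.03 (SE, adjusted p = 2.52e-08) without replicate 3. In MDA-MB-175 and ZR-75-30 the log2 changes were 0.08 ± 0.04 (SE, adjusted p = 0.172) and 0.04 ± 0.04 (SE, adjusted p = 0.406).

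DNAJB1 encodes HSP40, the co-chaperone that hands substrates to HSP70 and stimulates its ATPase. It lies at chr19:14625581-14671203, minus strand (GRCh37), and 525 of its exon bases overlap TECR on the other strand. Its normalized counts in ZR-75-30 were 2156, 2156, 2104 and 2080 at low and 1706, 1702, 1688 and 1639 at high glucose. The groups were widely apart and DNAJB1 fell by 0.33 ± 0.03 (SE, adjusted p = 1.72e-07). In HCC1500 the counts were 1028, 1113, 1074 and 1089 at low and 929, 923, 1505 and 925 at high glucose. Apart from replicate 3, the high glucose samples were the lower group, and the log2 change was -0.04 ± 0.16 (SE, adjusted p = 0.888) with that sample and -0.22 ± 0.03 (SE, adjusted p = 1.38e-05) without it. In MDA-MB-175 it was 0.10 ± 0.04 (SE, adjusted p = 0.0918).

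BAG3, which couples HSP70 to small heat shock proteins and to autophagy of aggregates, lies at chr10:121410892-121437331, plus strand (GRCh37) and was the least abundant of the 10 genes by normalized count in MDA-MB-175 and HCC1500. Its counts in MDA-MB-175 were 351, 309, 368 and 280 at low and 364, 408, 388 and 369 at high glucose. Replicate 3 at low glucose overlapped the high glucose samples, and the log2 change was 0.23 ± 0.07 (SE, adjusted p = 0.0319). Leaving out any of 4 of its 8 samples ended the call (adjusted p from 0.0575 to 0.105). In HCC1500 the log2 change was -0.07 ± 0.14 (SE, adjusted p = 0.764) and, without replicate 3, -0.21 ± 0.06 (SE, adjusted p = 0.00597), and in ZR-75-30 it was 0.02 ± 0.04 (SE, adjusted p = 0.796).

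HSP90AA1, the inducible cytosolic HSP90, had the highest normalized count of the 10 genes in each line. It lies at chr14:102547079-102606036, minus strand (GRCh37), and 14.4% of its 50-base stretches recur elsewhere, mostly in the pseudogene HSP90AA2P. In HCC1500 its counts were 8687, 8640, 8666 and 8637 at low and 9178, 9478, 10528 and 9017 at high glucose. All high glucose samples were higher, with a log2 change of 0.14 ± 0.08 (SE, adjusted p = 0.286) with replicate 3 and 0.09 ± 0.02 (SE, adjusted p = 0.00215) without it. In MDA-MB-175 and ZR-75-30 the log2 changes were -0.07 ± 0.04 (SE, adjusted p = 0.214) and -0.04 ± 0.04 (SE, adjusted p = 0.487). Every high glucose sample of MDA-MB-175 was below its low glucose samples, and in ZR-75-30 the groups overlapped.

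HSPD1 and HSPE1 encode HSP60 and HSP10, which form the mitochondrial chaperonin together. They are transcribed away from each other from adjacent RefSeq start sites. Their annotated spans are chr2:198351308-198381461, minus strand and chr2:198364864-198368173, plus strand (GRCh37), so that the HSPE1 span lies within that of HSPD1. In ZR-75-30 the normalized counts of HSPD1 were 4973, 4920, 4942 and 5325 at low and 5677, 5619, 5730 and 5461 at high glucose. The groups did not overlap and HSPD1 rose by 0.16 ± 0.04 (SE, adjusted p = 0.00144). In HCC1500 its counts were 2122, 2104, 2045 and 2078 at low and 2419, 2555, 3150 and 2449 at high glucose. Again no sample overlapped, and the log2 change was 0.33 ± 0.10 (SE, adjusted p = 0.0432), or 0.25 ± 0.03 (SE, adjusted p = 4.1e-07) without replicate 3. With replicate 3 kept, leaving out any 1 of the other 7 samples ended the call (adjusted p from 0.0539 to 0.117). In MDA-MB-175 it was 0.08 ± 0.04 (SE, adjusted p = 0.139), and 0.10 (adjusted p = 0.0254) without low glucose replicate 4.

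HSPE1 was not called in any line as deposited. In ZR-75-30 its counts were 1970, 1834, 1886 and 2077 at low and 1866, 1846, 1844 and 1726 at high glucose, a log2 change of -0.09 ± 0.04 (SE, adjusted p = 0.0822) with overlapping groups, and of -0.12 (adjusted p = 0.035) without low glucose replicate 2. In HCC1500 they were 550, 494, 551 and 528 at low and 506, 550, 1242 and 543 at high glucose. Replicate 3 was far above the rest, and the log2 change was 0.31 ± 0.26 (SE, adjusted p = 0.455) with it and 0.01 ± 0.04 (SE, adjusted p = 0.908) without it. The ratio of HSPD1 to HSPE1 within a sample was 2.6 ± 0.069 at low and 3.09 ± 0.0587 at high glucose in ZR-75-30 (SD, n = 4), without overlap. In MDA-MB-175 it was 2.74 ± 0.101 and 2.80 ± 0.139, with overlap. In HCC1500 it was 3.94 ± 0.229 at low glucose, and 4.78, 4.65, 2.54 and 4.51 in high glucose replicates 1 to 4, where only replicate 3 fell below the low glucose samples. HSPE1 shares 192 exon bases with the read-through gene HSPE1-MOB4 on the same strand, and HSPD1 and HSPE1 share 135 on opposite strands.

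**Figure D3:**
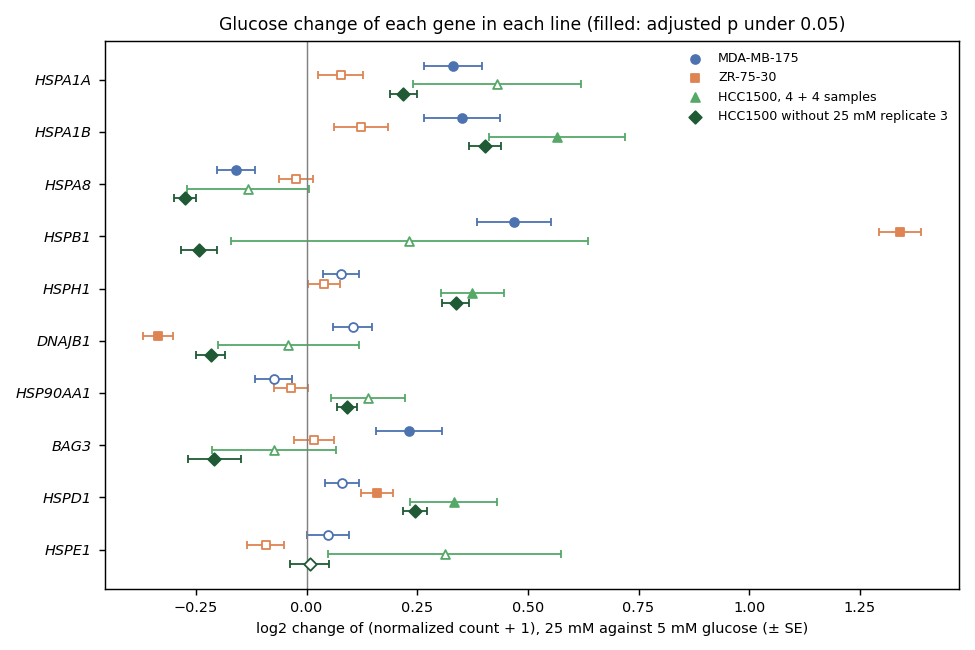
log2 change of (normalized count + 1) at 25 mM against 5 mM glucose for each gene, with bars of 1 SE, in MDA-MB-175 (circles), ZR-75-30 (squares), HCC1500 with all samples (triangles) and HCC1500 without replicate 3 (diamonds); filled symbols have an adjusted p under 0.05. HSPB1 in ZR-75-30, at 1.34, is the farthest from 0, and for HSPB1 the triangle and the diamond lie on opposite sides of 0.

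The excess of replicate 3 was not equal over the genes. Its normalized count divided by the mean of the other 3 HCC1500 high glucose samples was 3.75 for HSPB1 and 2.33 for HSPE1, the 2 genes with the shortest merged exons of the 10 (1623 and 1823 bases). The ratio was 1.8 for HSPA1A, 1.57 for HSPA1B, 1.63 for DNAJB1, 1.48 for HSPA8 and 1.46 for BAG3. It was lowest for HSPH1 (1.11), HSP90AA1 (1.14) and HSPD1 (1.27). The summed normalized counts of replicate 3 were above those of every other HCC1500 sample. Whether these lowest ratios exceed 1 therefore depends on the scaling factor of that sample. The HCC1500 calls of HSPH1, HSPD1 and HSPA1B held with and without the sample, and HSP90AA1 was called without it only.

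**Figure D4:**
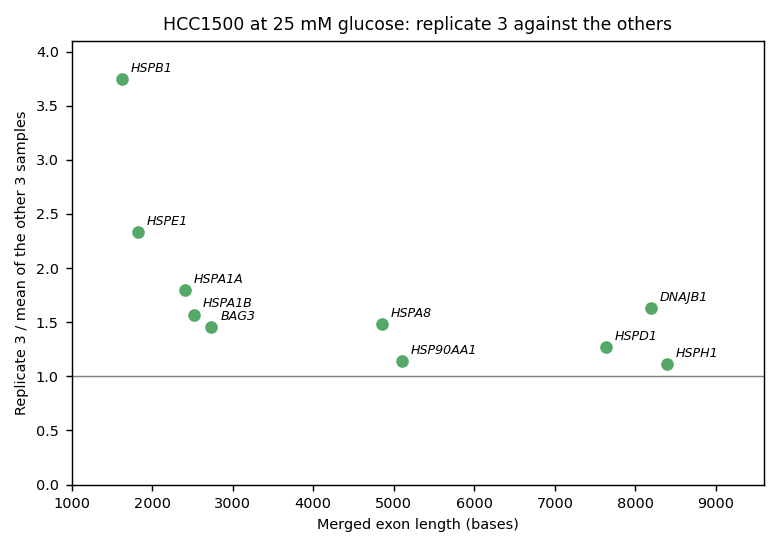
Normalized count in HCC1500 high glucose replicate 3 divided by the mean of the other 3 samples of its group (vertical axis, from 0, with a line at 1) against the merged exon length of each gene in bases. HSPB1 and HSPE1, with the shortest exons, have ratios of 3.75 and 2.33, and the other 8 genes lie between 1.11 and 1.8.

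Whether the glucose changes differed between lines was tested directly. With all 24 samples, an F test over the 3 lines called HSPH1 alone (adjusted p = 0.000467), where 29.3% of all genes were called. Without HCC1500 high glucose replicate 3 it called 7 of the 10, against 48.6% of all genes: HSPB1 (2.93e-10), DNAJB1 (1.17e-07), HSPH1 (1.11e-05), HSPA8 (0.000348), BAG3 (0.00253), HSP90AA1 (0.0027) and HSPD1 (0.0103, all adjusted p). HSPA1A, HSPA1B and HSPE1 had adjusted p-values of 0.0633, 0.125 and 0.185, which does not show that their changes were alike. The difference in log2 change of HSPH1, MDA-MB-175 minus HCC1500, was -0.30 ± 0.06 (SE, adjusted p = 0.00193), and ZR-75-30 minus HCC1500 it was -0.33 ± 0.06 (SE, adjusted p = 0.000403), so that HSPH1 rose more in HCC1500 than in either other line. HSPD1 differed between MDA-MB-175 and HCC1500 by -0.25 ± 0.09 (SE, adjusted p = 0.0495), a call that was lost on leaving out any of 21 single samples (adjusted p from 0.0508 to 0.0965) and was kept without HCC1500 high glucose replicate 3 at -0.17 ± 0.04 (SE, adjusted p = 0.00491). HSPB1 differed between ZR-75-30 and HCC1500 by 1.11 ± 0.37 (SE, adjusted p = 0.0327), a call lost on leaving out any of 8 single samples (adjusted p from 0.0531 to 0.0734). Without replicate 3 it differed by 1.58 ± 0.11 (SE, adjusted p = 9.21e-11). Between MDA-MB-175 and ZR-75-30 the HSPB1 difference was -0.87 ± 0.37 (SE, adjusted p = 0.155) and, with the spread estimated without that sample, -0.87 ± 0.11 (SE, adjusted p = 1.62e-06).

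In pairs of lines, 2 of the 10 genes were called between MDA-MB-175 and HCC1500, beside 17.7% of all genes, and 6 without replicate 3, beside 32.5%. Between MDA-MB-175 and ZR-75-30, 0 were called by limma, with 2 at an unadjusted p under 0.05 and 1 called by edgeR and by DESeq2 (background 11.2%), although DNAJB1 came to 0.44 ± 0.14 (SE, adjusted p = 0.0518). Without the HCC1500 sample 4 were called there (background 25.8%), namely HSPA1A, HSPA8, HSPB1 and DNAJB1. Between ZR-75-30 and HCC1500, 2 were called, HSPB1 and HSPH1 (background 25.2%), and 4 without replicate 3 (background 40.5%). Scaling by the median of ratios raised the count of the ZR-75-30 and HCC1500 pair to 7 with all samples and 9 without replicate 3. These comparisons share samples, since each line enters 2 of them.

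The lines also differed in their levels at low glucose. HSPB1 had the widest range, with 5341 ± 835 normalized counts in MDA-MB-175, 1744 ± 106 in HCC1500 and 599 ± 21.8 in ZR-75-30 (SD, n = 4), so that the highest line held 8.92 times the lowest. BAG3 was highest in ZR-75-30 instead, at 942 ± 28.1 in ZR-75-30, 327 ± 39.8 in MDA-MB-175 and 240 ± 16.1 in HCC1500. HSPE1 at 1942 ± 106, 1088 ± 38.1 and 531 ± 26.5 and HSPD1 at 5040 ± 191, 2980 ± 106 and 2087 ± 33.2 kept that same order. So did HSPA8 at 14610 ± 199, 10891 ± 266 and 6113 ± 121 and DNAJB1 at 2124 ± 38.3, 1829 ± 86.7 and 1076 ± 35.7. HSP90AA1 and HSPH1 were highest in MDA-MB-175, at 22059 ± 707 and 2099 ± 71.1, and lowest in HCC1500, at 8658 ± 23.7 and 807 ± 5.75. HCC1500 thus had the lowest mean in 7 of the 10 genes, the exceptions being HSPB1 and the HSP70 pair. HSPA1A averaged 5648 ± 193 in ZR-75-30, 3790 ± 158 in HCC1500 and 3688 ± 415 in MDA-MB-175, and HSPA1B 2137 ± 162, 1819 ± 67.4 and 1719 ± 270, with the latter 2 lines overlapping in both genes. For HSPA1B, samples of ZR-75-30 and HCC1500 overlapped as well.

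In tests of log2 levels, 8 of 10 genes differed between MDA-MB-175 and HCC1500, where 72.6% of all genes did. Between MDA-MB-175 and ZR-75-30 it was 8 of 10 (background 63.8%), and between ZR-75-30 and HCC1500 9 of 10 (background 73.0%). All 8 called between MDA-MB-175 and HCC1500 were higher in MDA-MB-175. Against ZR-75-30, MDA-MB-175 was higher for 2 (HSPB1 and HSPH1) and lower for 6, and ZR-75-30 was higher than HCC1500 for 8 of the 9, all but HSPB1. Over the 10 genes the median log2 difference was 0.80 for MDA-MB-175 minus HCC1500, -0.38 for MDA-MB-175 minus ZR-75-30 and 1.12 for ZR-75-30 minus HCC1500, beside all-gene medians of -0.05, 0.18 and -0.23. The HSPB1 difference was 3.14 ± 0.26 (SE, adjusted p = 4.12e-10) for MDA-MB-175 minus ZR-75-30 and -1.54 ± 0.26 (SE, adjusted p = 1.73e-05) for ZR-75-30 minus HCC1500. The BAG3 differences were -1.53 ± 0.10 (SE, adjusted p = 6.34e-12) and 1.97 ± 0.10 (SE, adjusted p = 3.92e-14). HSPA1A differed by -0.62 ± 0.13 (SE, adjusted p = 0.000276) and 0.58 ± 0.13 (SE, adjusted p = 0.00048) in these pairs, and by -0.05 ± 0.13 (SE, adjusted p = 0.771) between MDA-MB-175 and HCC1500. HSP90AA1 differed by 0.05 ± 0.05 (SE, adjusted p = 0.471) and DNAJB1 by -0.22 ± 0.10 (SE, adjusted p = 0.0677) between MDA-MB-175 and ZR-75-30. With the spread estimated without HCC1500 high glucose replicate 3, DNAJB1 was called in that pair (adjusted p = 2.33e-06) and HSPA1B between ZR-75-30 and HCC1500 (log2 difference 0.23, adjusted p = 0.0164). Scaling to CPM moved the all-gene median difference between MDA-MB-175 and ZR-75-30 from 0.18 to 0.29. It made the HSP90AA1 difference 0.28 ± 0.05 (SE, adjusted p = 2.61e-05), the DNAJB1 difference 0.02 ± 0.05 (SE, adjusted p = 0.781) and the HSPA1B difference -0.09 ± 0.09 (SE, adjusted p = 0.389). As deposited, HSPA1B was called in that pair at -0.33 ± 0.13 (SE, adjusted p = 0.027). This call was lost on leaving out any of 3 single samples (adjusted p from 0.0579 to 0.147). Without MDA-MB-175 low glucose replicate 4 the difference was -0.20.

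Compared between genes per kilobase of merged exon, the union of all annotated exons of a gene, HSP90AA1 was the most abundant of the 10 at low glucose in each line, with 1699 ± 4.66 normalized counts per kb in HCC1500, 4328 ± 139 in MDA-MB-175 and 4191 ± 99.2 in ZR-75-30 (SD, n = 4). HSP90AA1 also ranked first by count. HSPB1 ranked 2 of 10 per kb and 3 by count in MDA-MB-175, at 3291 ± 514 per kb, and 7 per kb and 10 by count in ZR-75-30, at 369 ± 13.4 per kb. Merged exons are longer than any single transcript for several of these genes. The per kb levels are therefore lower limits, also for HSPB1 with its 1 merged exon, and the order of close genes rests on that length. By this length HSPA1A was above HSPA8 in HCC1500 and HSPE1 above HSPD1 in all 3 lines, and by count both orders were turned. Together the 10 genes took 0.474% ± 0.00432 of all recovered reads in HCC1500, 0.843% ± 0.00488 in MDA-MB-175 and 0.771% ± 0.0129 in ZR-75-30 at low glucose (SD, n = 4).

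**Figure D5:**
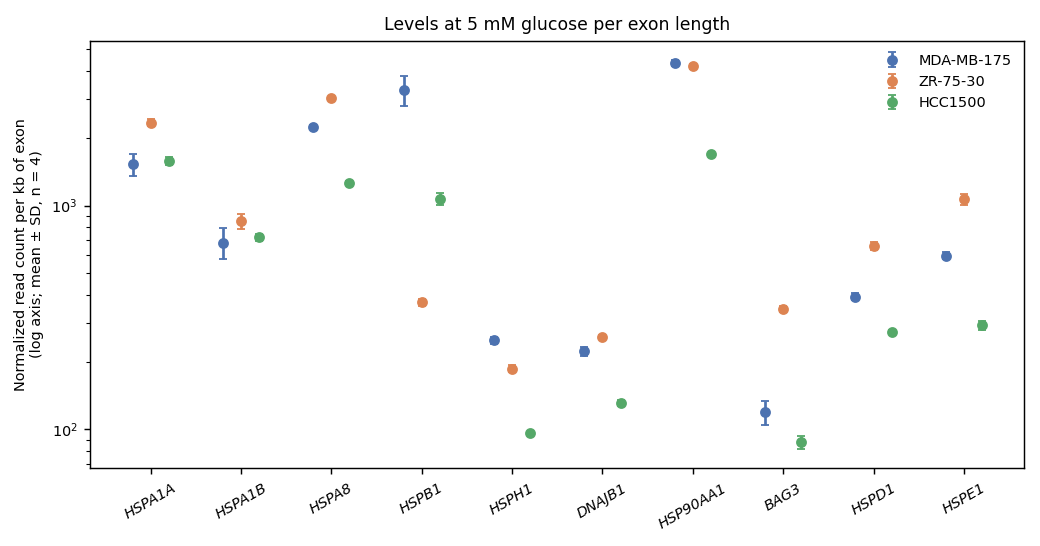
Level of each gene at 5 mM glucose in normalized read counts per kilobase of merged exon (log axis), with the mean ± SD of 4 samples for MDA-MB-175 (blue), ZR-75-30 (orange) and HCC1500 (green). The lines are farthest apart for HSPB1, from 369 in ZR-75-30 to 3291 in MDA-MB-175.

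The rest of the chaperone system was read in 9 lists of 92 genes, against the same shares of all genes as above. Of the heat shock factors and their binding protein, 3 of 4 rose in ZR-75-30: HSF1 at 0.47 ± 0.05 (SE, adjusted p = 5.74e-07), HSF2 at 0.38 ± 0.08 (SE, adjusted p = 0.000558) and HSF4 at 0.94 ± 0.21 (SE, adjusted p = 0.00127). In MDA-MB-175, 0 of 4 were called by limma, edgeR or DESeq2, with 1 at an unadjusted p under 0.05. In HCC1500, HSF4 fell by 0.72 ± 0.21 (SE, adjusted p = 0.0437), with a log2 change of -0.94 ± 0.10 (SE, adjusted p = 4.33e-07) without replicate 3. HSF1 came to 0.46 ± 0.23 (SE, adjusted p = 0.199) with all HCC1500 samples and 0.20 ± 0.04 (SE, adjusted p = 0.000175) without replicate 3. HSPA6, an HSP70 gene induced almost only by stress, rose by 1.22 ± 0.16 (SE, adjusted p = 3.33e-05) in MDA-MB-175 and 0.93 ± 0.27 (SE, adjusted p = 0.041) in HCC1500 (0.73 without replicate 3) and came to 0.61 ± 0.25 (SE, adjusted p = 0.0528) in ZR-75-30. Among small heat shock proteins, HSPB8, a partner of BAG3, rose by 1.37 ± 0.06 (SE, adjusted p = 1.86e-10) in MDA-MB-175 and 0.70 ± 0.12 (SE, adjusted p = 0.00498) in HCC1500 (0.58 without replicate 3). In ZR-75-30 HSPB8 was too low to be tested. CRYAB rose by 1.59 ± 0.27 (SE, adjusted p = 7.29e-05) in ZR-75-30 and was too low to be tested in the other lines. HSPB7, at 5.6 normalized counts or fewer in each HCC1500 sample, fell there by 1.79 ± 0.40 (SE, adjusted p = 0.0146) (log2 change -1.62 without replicate 3).

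Among the J-domain co-chaperones, the family of DNAJB1, 2 rose and 5 fell of 16 tested in ZR-75-30 (median log2 change -0.06), led downward by DNAJC9 at -0.95. In this list 3 rose of 16 tested in HCC1500 (median log2 change 0.11, and without replicate 3 7 rose and 4 fell of 16, median 0.08), with DNAJB4 at 1.46 (1.53 without replicate 3) the largest, and 1 rose of 16 tested in MDA-MB-175 (median log2 change 0.01). Of HSP90 and its co-chaperones, 5 rose and 8 fell of 15 tested in ZR-75-30 (median log2 change -0.13). FKBP5, a steroid receptor co-chaperone, had log2 changes of -0.995 in ZR-75-30 and -0.86 (-0.85 without replicate 3) in HCC1500, both called. CHORDC1 rose in all 3 lines, by 0.68 (0.68 without replicate 3) in HCC1500, 0.28 in MDA-MB-175 and 0.21 in ZR-75-30. HSP90AB1, the constitutive partner of HSP90AA1, gave -0.05 in MDA-MB-175, 0.15 in ZR-75-30, where it was called (adjusted p = 0.00378), and 0.02 in HCC1500, which turned to -0.08 ± 0.02 (SE, adjusted p = 0.00456), also called, without replicate 3. In this list 1 rose and 1 fell of 15 tested in MDA-MB-175 (median log2 change -0.04), and 1 rose and 1 fell of 15 tested in HCC1500 (median log2 change 0.13, and without replicate 3 2 rose and 7 fell of 15, median -0.05).

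Of the other HSP70 and HSP110 genes, 1 rose of 8 tested in MDA-MB-175 (median log2 change 0.06), 1 rose and 2 fell of 7 tested in ZR-75-30 (median log2 change -0.01) and 1 rose and 1 fell of 7 tested in HCC1500 (median log2 change 0.15, and without replicate 3 4 rose and 1 fell of 7, median 0.15), with HSPA14 at -0.54 in ZR-75-30, HSPA4L at 0.20 there and HSPA12A at -0.60 (-0.52 without replicate 3) in HCC1500. Of the BAG proteins and other HSP70 regulators, the group of BAG3, 2 rose of 8 tested in MDA-MB-175 (median log2 change 0.07), 3 rose and 1 fell of 8 tested in ZR-75-30 (median log2 change 0.10) and 4 rose of 8 tested in HCC1500 (median log2 change 0.35, and without replicate 3 5 rose and 1 fell of 8, median 0.28). The leading genes there were BAG6 at 0.18 in MDA-MB-175, ST13 at 0.46 and BAG5 at -0.24 in ZR-75-30, and BAG1 at 0.71 (0.48 without replicate 3) in HCC1500. Among the small heat shock proteins beside HSPB1, 1 rose of 4 tested in MDA-MB-175 (median log2 change 0.32), 1 rose and 1 fell of 4 tested in ZR-75-30 (median log2 change 0.34) and 1 rose and 1 fell of 3 tested in HCC1500 (median log2 change 0.19, and without replicate 3 1 rose and 1 fell of 3, median -0.11), with HSPB11 at -0.75 in ZR-75-30.

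Of the mitochondrial chaperones and proteases that work beside HSPD1 and HSPE1, 2 rose of 10 tested in MDA-MB-175 (median log2 change 0.03), 4 rose and 2 fell of 10 tested in ZR-75-30 (median log2 change 0.08) and 3 rose of 10 tested in HCC1500 (median log2 change 0.19, and without replicate 3 3 rose and 1 fell of 10, median 0.05). LONP1, the matrix protease, was at 0.40 in MDA-MB-175, CLPB at 0.26 and DNAJA3 at -0.26 in ZR-75-30, and GRPEL1 at 0.74 (0.55 without replicate 3) in HCC1500. HSPA9, the mitochondrial HSP70, rose in HCC1500 by 0.43 ± 0.07 (SE, adjusted p = 0.00407), or 0.40 without replicate 3. Of the cytosolic chaperonin and prefoldin subunits, 5 fell of 14 tested in MDA-MB-175 (median log2 change -0.10) and 2 rose and 6 fell of 14 tested in ZR-75-30 (median log2 change -0.01). In HCC1500, limma called 0 of the 14, with 1 at an unadjusted p under 0.05, 2 called by edgeR and 5 by DESeq2, and without replicate 3 limma called 4 that rose and 3 that fell. PFDN2 was at -0.20 in MDA-MB-175, and PFDN4 at 0.58 and CCT5 at -0.36 in ZR-75-30. Of the endoplasmic reticulum chaperones, 2 rose and 1 fell of 8 tested in MDA-MB-175 (median log2 change -0.05), 4 rose and 1 fell of 8 tested in ZR-75-30 (median log2 change 0.12) and 3 rose of 8 tested in HCC1500 (median log2 change 0.24, and without replicate 3 5 rose and 1 fell of 8, median 0.32). DNAJB9 was at 0.54 in MDA-MB-175 and 0.98 (0.90 without replicate 3) in HCC1500, HSPA13 at 0.93 and HYOU1 at -0.18 in ZR-75-30, and HSP90B1 at -0.22 in MDA-MB-175.

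Some of these list calls were lost when a single sample was left out. In HCC1500 this held for HSF4 (any of 7 samples, adjusted p up to 0.125), HSPA6 (6 samples, up to 0.116), BAG1 (4 samples, up to 0.0903), GRPEL1 (2 samples, up to 0.0577) and HSPB7 (low glucose replicate 4, 0.0517). In MDA-MB-175 it held for PFDN2 (6 samples, up to 0.157), CHORDC1 (4 samples, up to 0.0714) and BAG6 (3 samples, up to 0.0742). It also held there for DNAJA2 (5 samples, up to 0.112), the only J-domain co-chaperone of that list called in MDA-MB-175. In ZR-75-30 it held for HSPA4L (3 samples, up to 0.106) and HYOU1 (low glucose replicate 2, 0.0519).

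The genes whose pattern was most like that of HSPH1, by Pearson's r of log2 values centred on each line's mean over 23 samples (without HCC1500 high glucose replicate 3), were HSPA9 (0.971), SBDS (0.961), PTP4A1 (0.96), ATP2B1 (0.951) and PPT1 (0.95). For HSPD1 they were P4HA1 (0.961), YBX1 (0.954), TTC17 (0.947), M6PR (0.943) and EIF1B (0.94). The points share the glucose contrast, the flasks and the scaling, and the values are a description.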

How the data were processed

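RNA of 24 samples (3 cell lines, 2 glucose concentrations, 4 samples each) was sequenced on an Illumina HiSeq. The deposited table holds, per gene, a signal that the authors normalized: whole reads times 1 factor per sample. The factor was not identified here. The submitters' notes name edgeR and hg38, and the methods for other samples of the study name hg19, so no coordinate of the files was used. Strand use in counting is not given in the sources used here, so overlapping and antisense genes may share reads. Dividing by the factor gave whole reads for 100% of values within 0.1 read.

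The 10 genes and the gene lists were chosen with earlier results of these data known. Groups follow the sample titles. Genes that reached 0.5 in 4 or more samples were fitted on log2(value + 1) with limma 3.58.1 (R 4.3.3, empirical Bayes with trend), per line for glucose and on all samples for lines and interactions, with Benjamini-Hochberg adjustment over all genes. Fold changes on this scale understate those of low genes. The count test on recovered reads (edgeR 4.0.16, quasi-likelihood) called 7397 genes for glucose in ZR-75-30, 4402 in MDA-MB-175 and 3576 in HCC1500, and DESeq2 1.42.0 was an alternative. Other genes were named by a rule: 7 listed chaperone and factor genes, the largest called rise and fall of each list in each line, and the 5 genes most like HSPH1 and HSPD1 among genes with a mean of at least 10. Exon lengths, overlaps and shared 50-base stretches came from GENCODE annotation of GRCh37, and promoters from RefSeq. The fits were tested on simulated counts with known changes. That simulation held no sample that stood apart, so fits that include HCC1500 high glucose replicate 3 were not tested by it. Reads are not molecules, and their number limits precision by counting error only. Alternatives were other pseudocounts (0.1 and 5), filters, scalings and count tests, a replicate block, and each sample left out.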

Additional observations from a re-analysis of the deposited data

Results flagged for a closer look

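Of the 60 sets of 4 samples (10 genes in 6 groups), 12 held a sample that stood apart from the other 3, where chance gives about 1 in 20. In HCC1500 high glucose, 6 genes had replicate 3 far above the rest, with normalized read counts of 7919.4 for HSPA1A, 7493.1 for HSPA8, 5510.5 for HSPB1, 1505.2 for DNAJB1, 301.5 for BAG3 and 1241.6 for HSPE1. The other 6 were spread over the groups. In MDA-MB-175 low glucose, replicate 4 was lowest for HSPA1B at 1316.9 and highest for HSP90AA1 at 23116.3. In ZR-75-30, high glucose replicate 4 was lowest for BAG3 at 871.1 and for HSPE1 at 1725.7, and low glucose replicate 4 was highest for HSPD1 at 5325.1. In HCC1500 low glucose, replicate 2 was highest for HSPA1B at 1919.1.

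Differences in the glucose response between lines, tested as such in limma, were found for 3 genes with all samples. The HSPB1 log2 change in ZR-75-30 exceeded that in HCC1500 by 1.11, with all 4 high glucose samples of ZR-75-30 above its low glucose samples and 1 of 4 in HCC1500, and this call was lost on leaving out any of 8 single samples. HSPH1 differed over the 3 lines with an adjusted p of 0.000467, and rose most in HCC1500, in 4 of 4 samples. The HSPD1 log2 change in MDA-MB-175 minus that in HCC1500 was -0.25, a call lost on leaving out any of 21 single samples.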

How the results depend on the processing

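The counts of the 10 genes called moved most in comparisons that use HCC1500 high glucose. For glucose in HCC1500, the 3 called became 9 without replicate 3, and 9 also under CPM, median-of-ratios scaling, edgeR or the replicate block without that sample (alternatives chosen after seeing the data), 5 with DESeq2 or a fit on all 24 samples, and 1 with a log2 change of at least 0.5 required. That requirement left 0 of 5 in MDA-MB-175, 1 of 3 in ZR-75-30 and 5 of 8 between MDA-MB-175 and ZR-75-30 at low glucose, and for response differences 0 between MDA-MB-175 and HCC1500 and 1 between ZR-75-30 and HCC1500. A fit on all 24 samples left 0 in MDA-MB-175. The F test over the 3 lines called 1 as reported, 6 with DESeq2, TMM, CPM or median-of-ratios scaling, 5 with edgeR, and without replicate 3 it called 10 (CPM, median of ratios), 9 (edgeR) or 7 (block). Response differences between ZR-75-30 and HCC1500 numbered 2, 4 with CPM, 6 with edgeR, 7 with DESeq2, TMM or median of ratios, and without replicate 3 they numbered 9 (both rescalings), 7 (edgeR) or 4 (block). Between MDA-MB-175 and HCC1500 they numbered 2, 1 without a filter, with a pseudocount of 0.1 or with the block, and 6 in all settings without replicate 3. Between MDA-MB-175 and ZR-75-30 they numbered 0, and 1 with both count tests, all 3 rescalings, a pseudocount of 5 or the stricter filter. Leaving out each sample in turn gave 8 to 8, 7 to 9 and 9 to 10 called between lines at low glucose (MDA-MB-175 and HCC1500, MDA-MB-175 and ZR-75-30, ZR-75-30 and HCC1500). It gave 4 to 5 for glucose in MDA-MB-175, 3 to 5 in ZR-75-30 and 1 to 9 in HCC1500, and 1 to 6, 0 to 4 and 1 to 4 for the response differences in the order of lines just given, with 1 to 7 for the F test.

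Same-numbered samples showed little shared deviation from their group means (correlations from -0.04 to 0.11). Such deviations also hold counting error, and in HCC1500 high glucose the mean includes replicate 3. They therefore cannot settle whether the replicate numbers pair the flasks, which nothing given here states. With the replicate block and all samples, 0 of the 10 genes were called for glucose in HCC1500.

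Directions that turned were mostly of differences near 0. The log2 changes were -0.022 for BAG3 in ZR-75-30 with CPM and -0.0040 to 0.059 on leaving out single samples. For DNAJB1 in HCC1500 they were 0.022 with DESeq2, 0.011 with TMM, 0.0011 with edgeR, 0.015 with median of ratios and -0.22 to 0.018 on leaving out single samples. For HSPB1 in HCC1500 without replicate 3 they were -0.24 as deposited, -0.22 with CPM, -0.12 with median of ratios, -0.13 with edgeR and -0.25 with the block, and leaving out single samples gave -0.24 to 0.41. At low glucose, DNAJB1 between MDA-MB-175 and ZR-75-30 came to 0.019 with CPM, and HSP90AA1 to -0.038 with DESeq2, -0.051 with TMM, -0.049 with edgeR and -0.039 with median of ratios. HSPA1A between MDA-MB-175 and HCC1500 came to 0.022 with DESeq2, 0.047 with TMM, 0.053 with edgeR, 0.017 with median of ratios and -0.089 to 0.036 on leaving out single samples, and HSPA1B to 0.0095 with edgeR and -0.14 to 0.027 on leaving out single samples. HSPA1B between ZR-75-30 and HCC1500 came to -0.13 with CPM. Response differences between MDA-MB-175 and HCC1500 turned for HSPA1A without replicate 3 (0.11 as deposited, 0.070 with CPM, 0.047 with edgeR, 0.018 with median of ratios, 0.13 with the block, and -0.18 to 0.11 on leaving out single samples), and for HSPA8 likewise (0.12, 0.073, 0.053, 0.022 and 0.11), which also gave 0.029 with CPM and -0.082 to 0.12 on leaving out single samples. They turned too for HSPE1 (0.041 as deposited and 0.023 with the block, both without replicate 3, and -0.39 to 0.041 on leaving out single samples) and for HSPB1 (-0.0088 with DESeq2). The cause of these changes was not tested. Of the values of single genes, 547 of 640 for glucose, 1017 of 1050 between lines and 990 of 1130 response differences kept their direction and their side of the threshold.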
